A study of Rattus norvegicus with 10 samples.

Results

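The 4 miRNAs described here, miR-451-5p, miR-144-3p, miR-144-5p and miR-486, are those for which red blood cells are best known. They were taken by name from the 765 mature rat miRNAs of the deposited table, and all 4 were listed above 0 in each of the 10 libraries. Small RNA of the hippocampus was sequenced in Wistar rats aged 10 weeks, in 5 sham-operated libraries (replicates 1 to 5) and 5 libraries after 2-VO, the occlusion of both common carotid arteries that lowers blood flow to the brain (replicates 3, 5, 6, 7 and 8). No allele, drug or time after the operation is given in the sources used here, and the labels do not say whether blood was washed out of the vessels before dissection or whether each library is a separate animal. The p-values therefore speak only of the spread among these libraries, and part of it may be technical.

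A red blood cell has no nucleus and makes no new transcripts once mature, yet it keeps a stock of mature miRNAs from its precursor stage. miR-144 and miR-451 are cut from one primary transcript that the erythroid factor GATA-1 switches on, and both act in the late maturation of erythroid cells, where miR-451 protects them from oxidative stress. miR-486 comes from an intron of the ankyrin gene Ank1, is abundant in red blood cells and is also made in striated muscle. Brain tissue still holding blood in its vessels brings these miRNAs along, and their level is a usual sign of residual blood. In such bulk libraries, more red blood cells in a sample and more of a miRNA per cell cannot be told apart.

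The mature sequences are shown because the seed is the stretch by which a miRNA recognises its targets, and it sets which other miRNAs belong to the same seed family. RefSeq (build GRCr8) held a sequence for 3 of the 4, with the seed, bases 2 to 8, in capitals.
miR-451-5p: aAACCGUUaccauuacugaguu
miR-144-3p: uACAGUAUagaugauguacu
miR-144-5p: gGAUAUCAucauauacuguaagu
No other of the 690 listed miRNAs that have a sequence in that table shares one of these 3 seeds, and the members share none with each other. Bases 2 to 7 of miR-144-3p also occur in miR-101a-3p and miR-101b-3p, which are shown to mark where the seeds part.
miR-101a-3p: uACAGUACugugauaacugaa
miR-101b-3p: uACAGUACugugauagcugaa
These broadly expressed miRNAs stood far above it, at 8096 ± 1146 RPM and 2214 ± 215 RPM in sham libraries (RPM, reads per 1000000 reads of the library; SD, n = 5), against 3.50 ± 1.05 RPM for miR-144-3p. Their RPM was 1061 to 5047 times and 334 to 1473 times that of miR-144-3p, depending on the library.

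The hairpins, with the members in capitals, show how differently the neighbouring genes Mir144 and Mir451a are built.
Mir144: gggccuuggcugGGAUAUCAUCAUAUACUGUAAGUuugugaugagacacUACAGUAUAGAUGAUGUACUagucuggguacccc
Mir451a: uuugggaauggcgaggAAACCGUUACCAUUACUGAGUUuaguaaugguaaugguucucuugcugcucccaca
Mir144 has 14 bases between its annotated arms and Mir451a has 5, where the median of 263 rat hairpins with both arms annotated was 16 and 2 of them (0.760%) had at most 5. This number depends on where the annotated arms end and measures neither the loop nor the stem. The hairpin of miR-451 is known to be too short for Dicer and is cut by an Argonaute protein, which leaves the 5p arm as the mature form. In the table, miR-451-3p was listed at 0 in all 10 libraries. A value of 0 stands for fewer than 10 reads here, so miR-451-5p exceeded it at least 8.78-fold in the library with the fewest miR-451-5p reads and at least 55.7-fold in that with the most. That is no property of miR-451 alone in this table: of 179 hairpins with an arm of at least 10 RPM on average, 40 (22.3%) had the other arm at 0 in each library. Both arms of miR-144 were listed.

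Before the members are compared, 2 libraries need to be named. 2-VO replicate 3 had the lowest share of its reads on listed miRNAs, 60.3% against 64.2% to 78.0% in the other libraries, and the highest values of 4 of 6 miRNAs of epithelium and other brain regions, such as miR-200a-3p at 21.9 RPM. The summed level of those 6 miRNAs ran from 32.4 to 94.6 RPM in sham and from 36.0 to 118 RPM in 2-VO libraries. 2-VO replicate 8 had the highest level of each of the 4 red blood cell miRNAs, with 74.4% of its reads on listed miRNAs. The members' fold changes and correlations are given with and without these libraries, and values of the other lists are given over all 10. The reads behind the RPM values numbered 13032805 to 13850400 per library, and the neuronal miR-124-3p and miR-9a-5p were present at a median of 2221 and 135239 RPM. The 4 neuronal miRNAs read as a check of the tissue had a median log2 fold change of -0.035 and 0 passed the test described below, and the 6 epithelial ones had 0.66, with 5 above 0 and 0 passing.

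miR-451-5p, the cluster member with the most reads, stood at 20.6, 12.7, 14.4, 20.1 and 18.7 RPM in sham replicates 1 to 5. In 2-VO replicates 3, 5, 6, 7 and 8 it stood at 5.76, 26.0, 17.3, 26.0 and 36.2 RPM. The 2-VO libraries held both the lowest and the highest value, and the sham range lay inside theirs. The highest value was 1.62 times the lowest among sham and 6.29 times among 2-VO libraries, and 95% counting intervals (exact Poisson, counting error only) of 4.56 to 7.18 RPM in 2-VO replicate 3 and 33.1 to 39.5 RPM in 2-VO replicate 8 lay far apart.

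miR-144-3p, the arm of miR-144 that is held to be its main product, stood at 2.89, 2.00, 4.42, 4.44 and 3.76 RPM in the sham libraries. Its 2-VO values were 1.39, 6.26, 3.42, 4.21 and 7.95 RPM. As for miR-451-5p, 2-VO replicate 3 was lowest and 2-VO replicate 8 highest, and the groups overlapped. miR-144-5p, the partner arm, had sham values of 1.37, 1.26, 1.83, 1.41 and 1.76 RPM and 2-VO values of 0.802, 1.76, 1.90, 2.25 and 4.62 RPM. This is close to the lower end of what the table lists: the value in 2-VO replicate 3 stood for 11 reads, with an interval of 5.49 to 19.7 reads, and the highest stood for 64 reads.

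miR-486 was the most abundant member, at 106, 123, 119, 131 and 127 RPM in the sham libraries. In the 2-VO libraries it stood at 76.9, 112, 126, 108 and 171 RPM. Again 2-VO replicate 3 was lowest and 2-VO replicate 8 highest, but the highest value was 2.22 times the lowest over all libraries, against 6.29 times for miR-451-5p, 5.74 times for miR-144-3p and 5.77 times for miR-144-5p. miR-486 exceeded miR-451-5p, miR-451-5p exceeded miR-144-3p, and miR-144-3p exceeded miR-144-5p in 10 of 10 libraries. Ligation and amplification favour some sequences, so this order is one of reads, not of molecules.

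**Figure D1:**
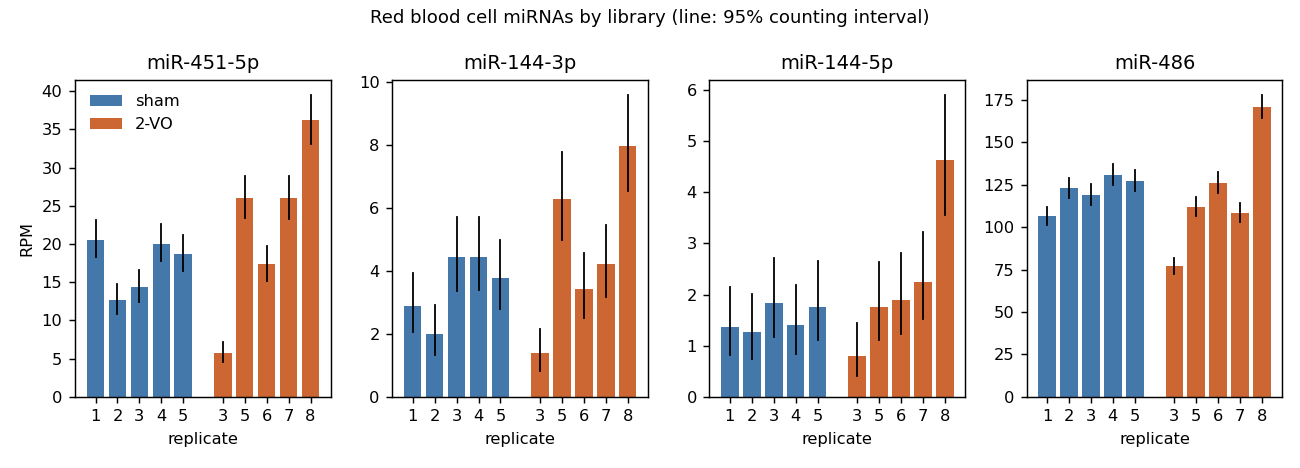
RPM of each member (y axis, its own scale per panel) in the 5 sham and 5 2-VO libraries, by replicate number; bars are the values and lines the 95% counting interval. 2-VO replicate 3 is lowest and 2-VO replicate 8 highest in each panel, from 5.76 to 36.2 RPM for miR-451-5p and from 76.9 to 171 RPM for miR-486.

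Read as a possible sign of the blood in each library, the 4 members together held 0.0141% to 0.0295% of the listed RPM, both ends being 2-VO libraries (replicates 3 and 8). The share averaged 0.0200% ± 0.00216 for sham and 0.0211% ± 0.00559 for 2-VO (SD, n = 5 each). This sum mostly reflects miR-486, which made up 76.7% to 90.6% of it. The summed RPM of the 3 cluster members alone ran from 15.9 to 25.9 in sham libraries and from 7.95 to 48.8 in 2-VO libraries. For comparison, all 4 stood well below the leading miRNAs of the tissue: by mean RPM miR-486 ranked 184 of the 528 miRNAs with any value, miR-451-5p 294, miR-144-3p 390 and miR-144-5p 439.

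The comparison of 2-VO with sham asks whether these miRNAs differ after carotid occlusion. Of the 4 members 0 passed, and 0% of the 474 miRNAs tested did (limma's moderated test on log2(RPM + 1), adjusted by Benjamini-Hochberg, threshold 0.05, for miRNAs averaging 1 RPM or more). 5.06% of the 474 had an unadjusted p under 0.05, and 0 of the 4 members did. miR-451-5p averaged 17.3 ± 3.54 RPM among sham libraries and 22.3 ± 11.4 RPM after 2-VO (SD, n = 5 each). Its log2 fold change was 0.17 ± 0.35 (SE; limma adjusted p = 0.960), with a 95% interval of 0.672 to 1.87 on the fold scale. miR-144-3p averaged 3.50 ± 1.05 and 4.64 ± 2.54 RPM, with a log2 fold change of 0.22 ± 0.29 (limma adjusted p = 0.932) and an interval of 0.755 to 1.81 times. miR-144-5p averaged 1.53 ± 0.254 and 2.27 ± 1.42 RPM, with a log2 fold change of 0.28 ± 0.23 (limma adjusted p = 0.867) and an interval of 0.857 to 1.71 times.

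miR-486 averaged 121 ± 9.41 RPM among sham libraries and 119 ± 34.2 RPM after 2-VO, with a log2 fold change of -0.072 ± 0.17 (limma adjusted p = 0.960) and a fold interval of 0.744 to 1.22. The spread within the 2-VO group thus exceeded each difference between the group means. The direction of 2 members depended on a single library: without 2-VO replicate 8 the log2 fold change of miR-451-5p was -0.053, and without 2-VO replicate 3 that of miR-486 was 0.072. Without 2-VO replicate 3 the log2 fold changes of miR-451-5p, miR-144-3p and miR-144-5p were 0.56, 0.50 and 0.47. Their limma unadjusted p was then 0.0115, 0.0440 and 0.0364, under 0.05, with an adjusted p of 0.805 for each. In that setting 21 of 476 miRNAs had an unadjusted p under 0.05. These 3 members come from the same primary transcript, so they are not separate hits. The library left out there was the lowest for each member. Without 2-VO replicate 8 those of miR-144-3p and miR-144-5p were 0.024 and 0.056. As deposited, 3 of the 4 members were above 0, with a median of 0.20, against 179 of all 474 (37.8%) and a median of -0.051. The groups overlapped for 4 of 4 members, where 0.633% of the 474 did not overlap.

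**Figure D2:**
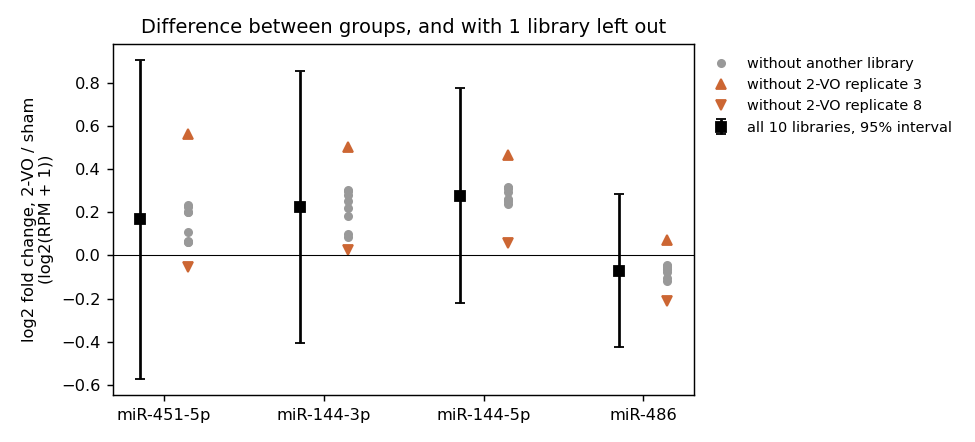
Log2 fold change of 2-VO over sham on the log2(RPM + 1) scale (y axis) for each member; squares with bars are the limma estimates over 10 libraries with their 95% intervals, and other points leave out 1 library. All 4 intervals include 0, and leaving out 2-VO replicate 3 or 8 moves each estimate most, for miR-451-5p to 0.56 or -0.053.

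Whether the members follow one another from library to library was asked for all 6 pairs, as correlations of log2(RPM + 1) over the 10 libraries (two-sided permutation tests with 100000 resamples, Benjamini-Hochberg adjustment over the 6). miR-451-5p and miR-144-3p, from the same primary transcript, had Pearson's r = 0.882 (permutation p = 0.00075, adjusted p = 0.0045) and Spearman's rho = 0.758 (permutation p = 0.0154, adjusted p = 0.0925). Without the libraries farthest from the median of miR-451-5p, which were 2-VO replicates 3 and 8, r was 0.662 over 8 libraries (permutation p = 0.0690). The slope of log2 RPM of miR-144-3p on that of miR-451-5p was 0.91, and 0.88 without those libraries. For this pair the slope was near 1 with and without the end libraries, which did not hold for the pairs with miR-144-5p described next. The call held with any 1 library left out (r from 0.810 to 0.920) and was lost when both end libraries were left out.

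The arms of miR-144 had r = 0.828 (permutation p = 0.00281, adjusted p = 0.00843) and rho = 0.648 (permutation p = 0.0499, adjusted p = 0.1497), and r = 0.534 without 2-VO replicates 3 and 8 (permutation p = 0.173). miR-451-5p and miR-144-5p had r = 0.802 (permutation p = 0.0137, adjusted p = 0.0258) and rho = 0.576 (permutation p = 0.0877, adjusted p = 0.159), and r = 0.460 without those libraries (permutation p = 0.256). The slopes fell by more than those of the first pair, from 0.75 to 0.33 for miR-144-5p on miR-144-3p and from 0.75 to 0.35 for miR-144-5p on miR-451-5p. Both calls held with any 1 library left out and were lost without both end libraries. They were also lost with values centred within each group, where r was 0.822 and 0.812 (permutation within groups, adjusted p = 0.0801 and 0.0802), whereas miR-451-5p with miR-144-3p kept its call (r = 0.882, adjusted p = 0.0424).

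miR-486 followed the cluster over all 10 libraries, but no relation passed once both end libraries were left out. Its r was 0.743 with miR-451-5p (permutation p = 0.0271, adjusted p = 0.0271), 0.729 with miR-144-3p (permutation p = 0.0215, adjusted p = 0.0258) and 0.796 with miR-144-5p (permutation p = 0.0204, adjusted p = 0.0258). By rank the relations were weaker, with rho of 0.261, 0.552 and 0.467 (permutation p = 0.467, 0.106 and 0.179). Without 2-VO replicates 3 and 8, r was -0.520 with miR-451-5p, -0.127 with miR-144-3p and -0.230 with miR-144-5p (permutation p = 0.189, 0.766 and 0.574, 8 libraries), so these calls rest on those 2 libraries. They were picked as the ends of the members' own values, which shortens the range and can lower r. The 8 others are too few to show that miR-486 and the cluster are unrelated there. With values centred within each group the 3 calls were lost too (r = 0.774, 0.781 and 0.902, permutation adjusted p = 0.0903, 0.0801 and 0.0801). Without 2-VO replicate 3 alone r with miR-451-5p was 0.382, and without 2-VO replicate 8 alone it was 0.632.

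The individual libraries show where miR-486 and the cluster part. Sham replicate 1 had the highest miR-451-5p of its group, 20.6 RPM, and the lowest miR-486, 106 RPM. 2-VO replicates 5 and 7 ranked 9 and 8 of 10 by the summed cluster level and 4 and 3 of 10 by miR-486, counted from the lowest. The slope of log2 RPM of miR-486 on that of miR-451-5p was 0.30 over 10 libraries, -0.16 without both end libraries, and 0.17 to 0.34 when any 1 library was left out.

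**Figure D3:**
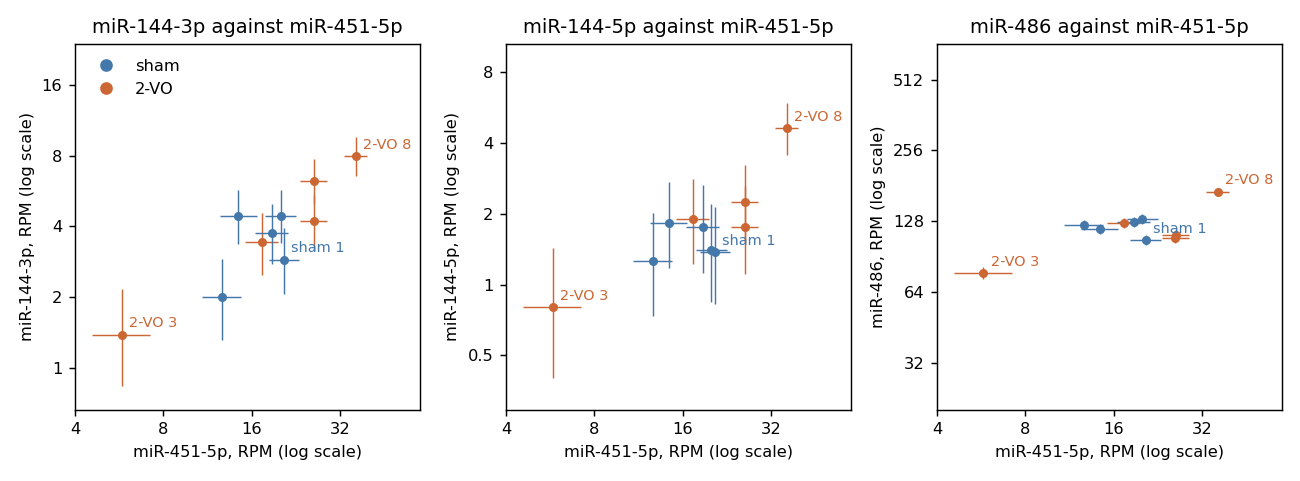
RPM of miR-144-3p, miR-144-5p and miR-486 (y axes) against miR-451-5p (x axis), all on log scales with the same number of doublings per panel; points are libraries, bars 95% counting intervals, and 3 libraries named in the text are labelled. Without 2-VO replicates 3 and 8 the slope goes from 0.91 to 0.88 for miR-144-3p, from 0.75 to 0.35 for miR-144-5p and from 0.30 to -0.16 for miR-486.

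Ratios within a library do not depend on the divisor of RPM. The ratio of miR-486 to miR-451-5p was highest in 2-VO replicate 3, at 13.4, and lowest in 2-VO replicates 7, 5 and 8, at 4.17, 4.30 and 4.72, whereas sham libraries ran from 5.17 to 9.71. Its log2 value averaged 2.83 ± 0.35 for sham and 2.60 ± 0.71 for 2-VO (SD, n = 5 each), and the groups differed by -0.23 (exact two-sided permutation test, p = 0.524, adjusted p = 0.722 over 3 ratios). The ratio of miR-451-5p to miR-144-3p stayed between 3.26 and 7.13, with log2 values of 2.34 ± 0.44 for sham and 2.25 ± 0.24 for 2-VO (difference -0.085, exact permutation p = 0.722, adjusted p = 0.722). In 2-VO replicates 3 and 8, which lay 6.29-fold apart in miR-451-5p, this ratio was 4.16 and 4.55.

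The ratio of miR-144-5p to miR-144-3p ran from 0.280 in 2-VO replicate 5 to 0.630 in sham replicate 2, with log2 values of -1.15 ± 0.36 for sham and -1.03 ± 0.45 for 2-VO (difference 0.12, exact permutation p = 0.619, adjusted p = 0.722). The 5p arm thus gave 21.9% to 38.6% of the reads of both arms, and with 30 to 174 reads per library the 95% Clopper-Pearson intervals were wide, from 14.4% to 31.0% in 2-VO replicate 5 and from 24.4% to 54.5% in sham replicate 2. In 2-VO replicate 8, with the most reads, the share was 36.8% (29.6% to 44.4%). 2-VO replicate 5 stood apart from the other 2-VO libraries, which ran from 34.9% to 36.8%, and sham libraries ran from 24.1% to 38.6%. The smallest p that all assignments of 5 and 5 libraries allow is 0.0079.

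Pooled over both groups, the members varied more between libraries of one group than most miRNAs. Their spread was wider among 2-VO than among sham libraries. Among sham libraries the highest value of miR-451-5p, miR-144-3p, miR-144-5p and miR-486 was 1.62, 2.22, 1.45 and 1.23 times the lowest. Among 2-VO libraries these factors were 6.29, 5.74, 5.77 and 2.22. The spread of sham libraries alone was not set beside that of other miRNAs. The within-group SD of log2(RPM + 1) was 0.71 for miR-451-5p, above 98.5% of the 474 miRNAs, 0.58 for miR-144-3p (above 96.8%), 0.43 for miR-144-5p (above 93.5%) and 0.30 for miR-486 (above 81.4%), where the median was 0.21. Without 2-VO replicate 3 these values were 0.35, 0.41, 0.33 and 0.21, above 91.1%, 93.7%, 89.0% and 61.2% of miRNAs, so that miR-486 lay near the middle. Among miRNAs within 2-fold of the same level, over all 10 libraries, 2 of 94 had a larger SD than miR-451-5p, 7 of 84 than miR-144-3p, 10 of 77 than miR-144-5p and 12 of 75 than miR-486.

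Over all 10 libraries miR-486 ranked 5 of 471 miRNAs by its correlation with the mean log2 level of the 3 cluster members (r = 0.794, where the median of all was 0.244). Without 2-VO replicate 3 it ranked 20 (r = 0.576, where the median of all was 0.0237), and without 2-VO replicates 3 and 8 it ranked 321 (r = -0.349). Of other miRNAs with at least 10 RPM, those most like the cluster over the 10 libraries were miR-3085 (r = 0.838), miR-143-5p (0.831), let-7f-2-3p (0.810), miR-136-3p (0.748) and miR-376b-5p (0.742). Without 2-VO replicate 3 their r was 0.657, 0.689, 0.671, 0.496 and 0.578 in that order, and without 2-VO replicates 3 and 8 it was 0.515, 0.246, 0.421, 0.162 and 0.228. miR-143-5p is an arm of a miRNA of smooth muscle, and miR-136-3p and miR-376b-5p come from the imprinted Dlk1-Dio3 locus. miR-3085 stood at 15.8 RPM in 2-VO replicate 3 and 36.1 RPM in 2-VO replicate 8, around a median of 28.7 RPM, and let-7f-2-3p at 26.0 and 43.4 RPM around 35.8 RPM. The points of these correlations share their library and its divisor, and an order of 471 values over 10 libraries always has a top, so they describe these libraries.

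**Figure D4:**
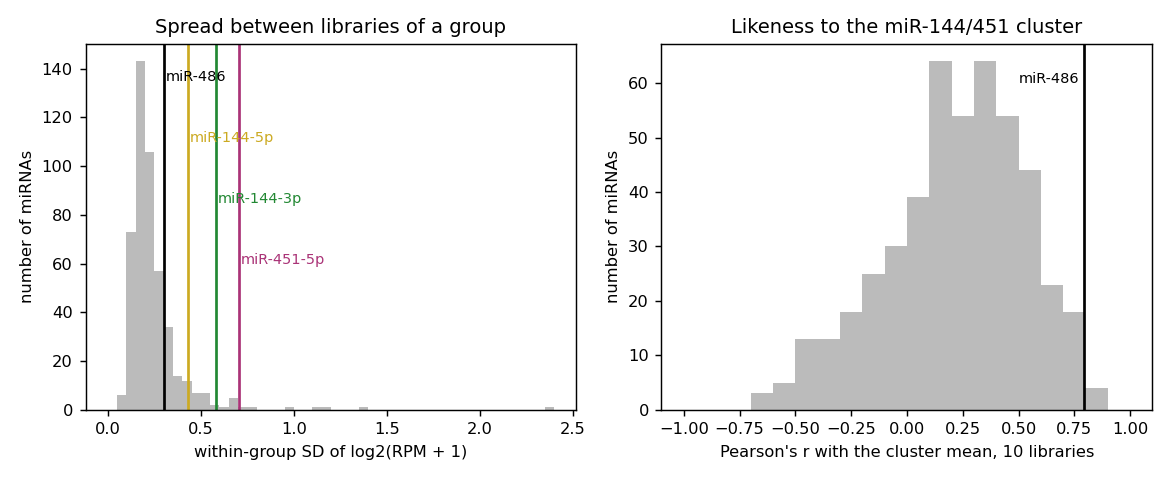
Left, the within-group SD of log2(RPM + 1) (x axis) of 474 miRNAs (number on the y axis) with the members as lines, at 0.30 to 0.71; right, Pearson's r with the mean of the 3 cluster members over 10 libraries (x axis) for 471 miRNAs, with miR-486 at 0.794. The members lie in the upper part of the left distribution and miR-486 near the upper end of the right one.

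Other miRNAs that blood, vessels or muscle would bring were read from lists of their own. Of 8 miRNAs that are abundant in red blood cells and also made by many other cells, 0 passed, 4 were above and 4 below 0 in 2-VO, and the median log2 fold change was 0.0068. Their summed level was 2742 RPM in 2-VO replicate 3 and 2552 RPM in 2-VO replicate 8, the reverse order of the members. miR-16-5p, for example, stood at 256 and 231 RPM and miR-185-5p at 1016 and 1124 RPM in those libraries. Their correlations with the cluster ran from -0.490 for miR-25-3p to 0.205 for miR-363-3p, over the 10 libraries.

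Of 5 leukocyte and platelet miRNAs, 4 were tested and 0 passed, with a median log2 fold change of 0.090. Their r with the cluster over the 10 libraries ran from 0.231 to 0.611 (median 0.543), above the median of all miRNAs, 0.244. Their summed level ran from 243 to 286 RPM in sham and from 233 to 297 RPM in 2-VO libraries. In the 2-VO group replicate 3 was lowest and replicate 8 highest, as for the members. This sum mostly reflects miR-150-5p, which averaged 235 RPM in sham libraries, where the sum averaged 269 RPM. Counted from the lowest of 10 libraries, miR-155-5p and miR-223-3p ranked 2 and 5 in 2-VO replicate 3. In 2-VO replicate 8 they ranked 5 and 7. The summed RPM of all listed miRNAs was also lower in 2-VO replicate 3 than in 2-VO replicate 8, at 0.854 and 1.05 times the mean of the 10 libraries. This order is therefore not particular to blood-borne cells. miR-142-3p, made by blood-borne cells and microglia, stood at 17.3 and 24.9 RPM in these libraries, and the lymphocyte miRNA miR-150-5p at 204 and 255 RPM. The largest miR-142-3p value, 33.8 RPM, was in 2-VO replicate 5. The neutrophil and platelet miRNA miR-223-3p, at most 1.91 RPM, was listed at 0 in 1 library and was not tested. The part of these cells in the level of the members was not tested.

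The 4 vessel wall miRNAs summed to 18699 to 21179 RPM in sham and 15973 to 22630 RPM in 2-VO libraries, with 0 passing and a median log2 fold change of -0.052. Their r with the cluster ran from 0.210 to 0.529 (median 0.479). Endothelial miR-126a-3p stood at 5880 RPM in 2-VO replicate 3 and 7982 RPM in 2-VO replicate 8, and miR-143-3p of smooth muscle at 10040 and 14139 RPM. These are 1.36-fold and 1.41-fold apart, against 2.22-fold for miR-486 and 6.29-fold for miR-451-5p. miR-145-5p of the same list stood at 134 and 165 RPM there, which ranked 1 and 2 of 10 libraries counted from the lowest. The level of vessel miRNAs thus moved in the same order between these libraries by a smaller factor, though miR-145-5p was low in both. That order is not particular to vessels, as the 4 neuronal miRNAs summed to 159536 and 196559 RPM in 2-VO replicates 3 and 8. The summed RPM of all listed miRNAs had the same order, at 0.854 and 1.05 times the mean of the libraries. The part of vessel miRNAs in the result was not tested.

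Since miR-486 is also made in striated muscle, 7 muscle miRNAs were read beside it. Of these, miR-208a-3p and miR-208b-3p were listed at 0 in all libraries and miR-133b-3p reached at most 0.998 RPM, while 4 were tested, 0 passed and the median log2 fold change was -0.040. The r of these 4 with the cluster, which leaves out miR-486, ran from 0.225 to 0.463 (median 0.377, where the median of all was 0.244). Their r with miR-486 itself was not computed. miR-499-5p, which lies in a myosin gene, averaged 168 ± 44.0 RPM for sham and 158 ± 30.3 RPM for 2-VO (SD, n = 5 each), and miR-1-3p at 12.1 ± 2.60 and 11.8 ± 3.29 RPM. miR-1-3p is the leading miRNA of skeletal and heart muscle. The part of muscle in the level of miR-486 was not tested. The 3 miRNAs that fall as erythroid cells mature, miR-221-3p, miR-222-3p and miR-24-3p, were all below 0 in 2-VO (median log2 fold change -0.20) and 0 passed. Most miRNAs were below 0 too, 295 of all 474, with a median of -0.051. miR-221-3p and miR-222-3p were lowest in 2-VO replicate 3, at 1352 and 622 RPM, the library in which the red blood cell miRNAs were lowest too, while miR-24-3p ranked 5 of 10 there, at 2706 RPM. The r of the 3 with the cluster ran from -0.156 for miR-24-3p to 0.373 (median 0.218). A lowest value in 2-VO replicate 3 was not particular to these miRNAs. Neuronal miR-9a-5p was lowest there too, at 109628 RPM, while neuronal miR-132-3p ranked 9 of 10.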

How the data were processed

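The table the authors deposited holds RPM (reads per 1000000 reads) of 765 rat miRNAs in 10 libraries. BWA, bcl2fastq and build rn6 are listed in the submitters' processing notes, while the sources used here do not give how reads were aligned, assigned or scaled. Each value above 0 was a whole number of reads (within 0.01 reads) at 1 divisor per library, and none was below 10 reads, so a 0 is read as fewer than 10 reads. No molecular identifiers are named, and intervals cover counting error only. The members and lists were chosen with earlier results of these data known.

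log2(RPM + 1) was compared for 474 miRNAs averaging 1 RPM or more, with limma 3.58.1 in R 4.3.3 (mean-variance trend, no covariate, two-sided, Benjamini-Hochberg adjustment), and the script was tested on simulated data. Ratios and correlations used permutation tests (Python 3.11.15). Named miRNAs are the members, the 5 of at least 10 RPM most like the cluster, and examples from 7 lists. Other settings changed the pseudocount, filter, scaling, model and block or left out each library. The planned count models were not run, because reads worked back from RPM were not taken as deposited counts. As an alternative only, voom from limma was run on these reads. No row nearly repeated a member, though some other rows appear to repeat one another. No genome of build rn6 was used, so no coordinates are given. Sequences are from RefSeq.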

Additional observations from a re-analysis of the deposited data

Results flagged for a closer look

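In the 2-VO group, the log2 ratio of miR-144-5p to miR-144-3p in replicate 5 was -1.83, while the other libraries ran from -0.90 to -0.78. The gap to the nearest was 0.887 of the range of the 5 libraries, above the limit of 0.71. That library had 23 reads of miR-144-5p and 82 of miR-144-3p. It was 1 of 16 groups of 5 values looked at, where chance alone gives about 0.8.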

How the results depend on the processing

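Of 216 values under other settings, 195 were labelled the same as the main value. For fold changes, ratios and correlations this meant the same direction and side of the threshold. For the number of miRNAs passing it meant an equal count, and for the members' share a mean within the group's SD of the main one. No miRNA passed under 8 of the 9 other settings or with any library left out. With the replicate block 8 passed, and the log2 fold changes of miR-451-5p, miR-144-3p and miR-144-5p were -0.37, -0.29 and -0.33 and that of miR-486 was -0.40 (limma adjusted p = 0.997 each). Only numbers 3 and 5 occur in both groups, so this fit rests on 4 libraries. The deviations from group means of same-numbered libraries had correlations of -0.0583 and -0.176. So few values cannot decide whether same-numbered libraries were handled together, and the labels do not say. With each library left out in turn, the log2 fold changes ran from -0.053 to 0.56 for miR-451-5p, 0.024 to 0.50 for miR-144-3p, 0.056 to 0.47 for miR-144-5p and -0.21 to 0.072 for miR-486, without 2-VO replicates 8 and 3. The differences in log2 ratio ran from -0.0041 to 0.32 for miR-144-5p to miR-144-3p (without sham replicate 4 and 2-VO replicate 5), from -0.24 to 0.039 for miR-451-5p to miR-144-3p (without sham replicates 3 and 1) and from -0.52 to -0.096 for miR-486 to miR-451-5p (without 2-VO replicates 3 and 7). The correlations of miR-486 ran from 0.382 to 0.819 with miR-451-5p, 0.507 to 0.838 with miR-144-3p and 0.607 to 0.852 with miR-144-5p, and did not pass without either 2-VO replicate 3 or 2-VO replicate 8, while those within the cluster passed throughout. With values centred within each group, 5 of 6 correlations did not pass, being 0.812 for miR-451-5p with miR-144-5p, 0.822 for the arms of miR-144, and 0.774, 0.781 and 0.902 for miR-486 with miR-451-5p, miR-144-3p and miR-144-5p (permutation within groups, adjusted p = 0.080 to 0.090). As a share of all reads the members held 0.0144% in sham and 0.0148% in 2-VO libraries. The cause was not tested for any of these. Counts of 11 to 64 reads limit miR-144-5p.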
